A study of Mus musculus with 9 samples.

Results

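The major urinary protein (Mup) genes are a cluster on mouse chromosome 4. Their RNA was followed here through 9 mouse liver tumors. The 9 genes examined were Mup1, Mup2, Mup3, Mup7, Mup10, Mup11, Mup17, Mup20 and Mup21, out of 49 genes with a Mup name and an entry in the deposited tables, 22 of which were not named as pseudogenes. A gene counted as measured where its symbol stood in the name of an entry, and each of the 9 genes had an entry in every tumor. Because 1 entry of responsive tumor 1 named Mup20 and Mup3 together, those 2 genes were summed into 1 locus in all tumors, so that the 9 genes made 8 loci out of 48235 loci in the tables.

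Major urinary proteins are small secreted lipocalins, barrel-shaped proteins that carry volatile ligands and convey scent signals in mouse urine. They are made mainly by mature hepatocytes, with higher levels in males than in females. Pulses of growth hormone, acting through its receptor and STAT5 in hepatocytes, sustain that male pattern. Their RNA therefore serves as a marker of mature hepatocyte RNA in a bulk liver sample. Fewer hepatocytes and less RNA per hepatocyte cannot be told apart in such samples.

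The tumors were grown in male C57BL/6 mice, 6 to 8 weeks old at purchase, from pieces of Hepa1-6 tumor placed in the liver. Hepa1-6 is a mouse hepatoma line. The mice received either PBS or an antibody to PD-1, an inhibitory receptor of T cells (clone RMP1-14), by 5 intraperitoneal injections given 4 days apart. There were 3 groups of 3 tumors, called PBS, nonresponsive and responsive, with 1 tumor a mouse, and the last 2 groups had received the antibody. The nonresponsive tumors were the largest and the responsive tumors the smallest of the antibody-treated ones, and intermediate tumors were left out, so response and tumor size cannot be told apart. Tissue around each tumor had been cut away before RNA was taken. Values are FPKM, fragments per kilobase of transcript corrected for library size, so that levels of different genes are compared per length. The number of sequenced fragments was not in the files used here, so absolute depth is unknown, and the spacing of low FPKM values placed the tumors at 0.935 to 1.07 times the depth of PBS tumor 1.

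Several tumors stood apart in ways that bear on the Mup values. Nonresponsive tumor 1 and responsive tumor 1 had Afp, the alpha-fetoprotein gene of fetal liver and hepatoma, at 0.321 and 0.646 FPKM, against 4.40 to 56.5 FPKM in the other 7 tumors. Their Krt19, a keratin of bile duct cells measured in 1 locus with Krt15, stood at 1.47 and 5.82 FPKM, against 51.6 to 211.8 FPKM elsewhere. Their Xist, the RNA that coats an inactive X chromosome, stood at 0.0379 and 0.0191 FPKM, against 5.73 to 31.5 FPKM elsewhere. The same pair of tumors had the 2 highest summed Mup values given below. Nonresponsive tumor 2 had a summed FPKM of 1836 over 10 pancreatic acinar loci, against 22.4 to 63.3 in the others, with the digestive enzyme gene Ctrb1 at 415.3 FPKM there and listed at 0 in the other 8 tumors. Nonresponsive tumor 3 had a summed FPKM of 321.6 over 5 skeletal muscle loci, against 72.5 to 131.1 in the others, with Tnnc2 at 50.3 FPKM there and listed at 0 elsewhere. All 9 samples are labelled as tumors, and how much tumor tissue the 2 with low Afp held was not tested. The part of these differences in the Mup results was not tested either. Counts for responsive over nonresponsive tumors are given below also without both tumors of low Afp where that changed a call or moved the count by over 1.5 times. Entries without a gene name held from 19.2% of all FPKM in PBS tumor 3 to 81.5% in PBS tumor 1.

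The genes differ in how far their RNA can be told apart. Over the coding sequences of GENCODE M21 transcripts, 6 of the 9 genes formed a near-identical set, Mup1, Mup2, Mup7, Mup10, Mup11 and Mup17, in which the 15 pairs shared 98.4% to 99.4% of bases. Mup3, Mup20 and Mup21 were more distant, with 83.2% to 91.4% identity to the near-identical set and 87.8% to 95.0% among themselves. Of all 100-base windows of the Mup11 coding sequence, 100% also occurred in another Mup gene. The corresponding share was 97.7% for Mup10, 97.1% for Mup2, 94.4% for Mup1, 75.7% for Mup17 and 73.2% for Mup7. It was 5.82% for Mup21, 5.70% for Mup3 and 0% for Mup20. FPKM values of single near-identical genes therefore rest on how the authors' software divided shared reads, and are uncertain as values of 1 gene. The stretch below shows this likeness over 48 coding bases that span the junction of exons 1 and 2, bases 70 to 117 of the Mup10 coding sequence counted from its first base (minus strand of chromosome 4, chr4:60581634-60582019 with the intron, GRCm38). Among windows of this length without gaps, compared codon by codon, it was chosen for the most differences from Mup10 summed over the 9 genes. The differences shown are therefore not those of a typical window. Capitals mark bases that differ from Mup10.
Mup10: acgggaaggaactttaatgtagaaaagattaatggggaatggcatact
Mup1: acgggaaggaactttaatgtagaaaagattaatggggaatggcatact
Mup7: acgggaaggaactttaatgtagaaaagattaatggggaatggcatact
Mup11: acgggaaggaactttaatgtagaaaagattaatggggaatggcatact
Mup17: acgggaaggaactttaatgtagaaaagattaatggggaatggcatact
Mup2: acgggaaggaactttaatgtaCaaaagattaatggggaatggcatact
Mup20: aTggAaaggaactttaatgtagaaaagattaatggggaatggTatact
Mup3: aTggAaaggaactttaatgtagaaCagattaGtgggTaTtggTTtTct
Mup21: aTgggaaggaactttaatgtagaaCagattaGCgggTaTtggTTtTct
In these 48 bases Mup1, Mup7, Mup11 and Mup17 equal Mup10, while Mup2 differs at 1 base, Mup20 at 3, and Mup3 and Mup21 at 9 each.

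The transcripts of all 9 genes lie on the minus strand of chromosome 4, from Mup7 at chr4:60066470-60070411 to Mup21 at chr4:62147932-62150863 (GRCm38). RefSeq promoters, from 250 bases before to 50 bases after the annotated start, were matched for 7 of the 9 genes, all but Mup1 and Mup20. The letters TATATAAG, a TATA-like element chosen after the sequences had been seen, stood in 6 of the 7 promoters, against 1.07% of 27025 promoters. The Mup7 window held none, but it ended at chr4:60070426, upstream of the GENCODE transcript start at chr4:60070411. Bases from that start onward were not searched in Mup7, while the other 6 windows ran past theirs. Whether Mup7 lacks the element therefore cannot be told. The motifs TTCNNNGAA (bound by STAT5), TTGCNNAA (bound by C/EBP factors) and TATAAA, searched on both strands, were in 0 of the 7 windows and in 8.47%, 10.8% and 14.2% of all promoters. The promoters of Mup10 (chr4:60582106-60582405, minus strand, GRCm38.p6), from the near-identical set, and of Mup3 (chr4:62087268-62087567, minus strand), from the more distant genes, are shown as examples with TATATAAG in capitals.
Mup10: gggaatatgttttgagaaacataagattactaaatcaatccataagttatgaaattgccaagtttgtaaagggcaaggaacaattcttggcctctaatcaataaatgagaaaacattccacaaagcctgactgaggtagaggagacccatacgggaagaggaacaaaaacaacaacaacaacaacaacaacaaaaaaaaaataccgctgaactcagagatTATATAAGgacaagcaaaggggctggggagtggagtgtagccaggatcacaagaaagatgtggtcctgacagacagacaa
Mup3: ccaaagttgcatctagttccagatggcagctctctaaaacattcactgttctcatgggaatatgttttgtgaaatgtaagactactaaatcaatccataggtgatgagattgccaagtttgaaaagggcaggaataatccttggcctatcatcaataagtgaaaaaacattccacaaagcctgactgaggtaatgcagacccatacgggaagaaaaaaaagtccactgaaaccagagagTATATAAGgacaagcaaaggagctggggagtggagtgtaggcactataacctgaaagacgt
The element stands in both promoters, although the coding sequences of these 2 genes belong to the different sets described above.

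The summed FPKM of the 9 genes spanned 89.9-fold among the tumors. It was 75.7, 629.3 and 1339 in PBS tumors 1, 2 and 3. In nonresponsive tumors 1, 2 and 3 it was 4501, 840.3 and 965.9. In responsive tumors 1, 2 and 3 it was 6809, 3501 and 2641. All 3 responsive tumors lay above all 3 PBS tumors, whereas nonresponsive tumor 1 lay inside the responsive range and the other nonresponsive tumors inside the PBS range. Group means were 681.3 ± 633.3 FPKM in PBS, 2103 ± 2078 FPKM in nonresponsive and 4317 ± 2201 FPKM in responsive tumors (SD, n = 3). On the log2(summed FPKM + 1) scale the responsive mean was 3.31 above PBS and 1.37 above nonresponsive, and the nonresponsive mean was 1.94 above PBS. Without nonresponsive tumor 1 the difference of responsive over nonresponsive tumors was 2.14 and that of nonresponsive over PBS 1.17. Without PBS tumor 1, the lowest of all, the differences from PBS were 2.11 for responsive and 0.75 for nonresponsive tumors.

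**Figure D1:**
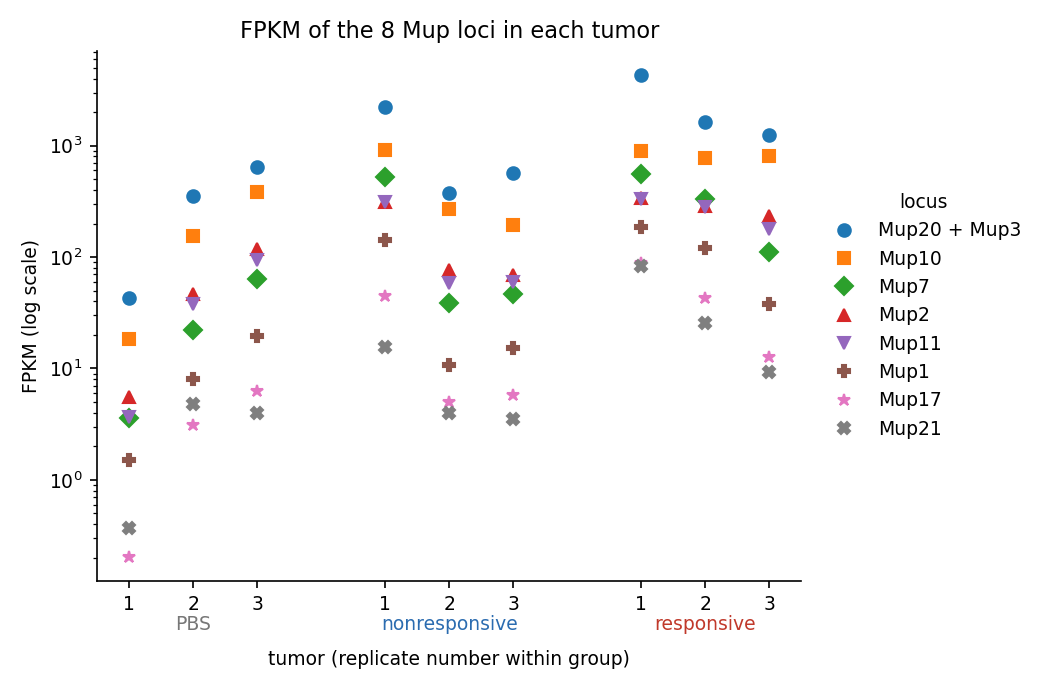
FPKM of the 8 Mup loci (log scale) in each of the 9 tumors, grouped by treatment and response; each point is 1 tumor and 1 locus. PBS tumor 1 lies lowest for every locus, and nonresponsive tumor 1 lies within the responsive range for all loci but Mup10.

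Among the near-identical genes, Mup10 had the highest level, with a mean of 491.2 FPKM over the 9 tumors. Its FPKM was 18.3, 154.4 and 385.2 in the PBS tumors, 906.2, 271.9 and 195.2 in the nonresponsive tumors, and 903.0, 779.2 and 807.4 in the responsive tumors. The 3 responsive values lay close together, above every PBS tumor, and nonresponsive tumor 1 was the highest of all 9 by a small margin. Mup2 had 5.52, 47.1 and 117.4 FPKM in PBS, 315.2, 75.9 and 68.9 FPKM in nonresponsive and 338.8, 289.7 and 233.7 FPKM in responsive tumors. Mup11 had 3.70, 38.2 and 94.1 FPKM in PBS, 309.8, 58.8 and 59.7 FPKM in nonresponsive and 329.8, 281.4 and 179.1 FPKM in responsive tumors. In both genes the responsive tumors lay above the PBS tumors throughout, and nonresponsive tumor 1 lay among the responsive values.

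Mup7 had 3.61, 21.9 and 63.1 FPKM in PBS, 523.1, 39.0 and 47.0 FPKM in nonresponsive and 558.8, 330.9 and 112.1 FPKM in responsive tumors. Mup1 had 1.49, 7.97 and 19.5 FPKM in PBS, 141.9, 10.7 and 15.1 FPKM in nonresponsive and 184.8, 119.5 and 37.7 FPKM in responsive tumors. Mup17 had 0.204, 3.10 and 6.23 FPKM in PBS, 44.4, 5.05 and 5.76 FPKM in nonresponsive and 87.7, 43.0 and 12.6 FPKM in responsive tumors. In these 3 genes responsive tumor 3 lay well below the other 2 responsive tumors, which was not so for Mup10. The deposited 95% interval of Mup17 in PBS tumor 1 ran from 0 to 0.508 FPKM, so its level there was not distinguishable from 0. Summed over the near-identical set, responsive tumors held 1383 to 2403 FPKM, nonresponsive tumors 391.7 to 2241 FPKM and PBS tumors 32.8 to 685.5 FPKM.

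Mup20 encodes darcin, a pheromone protein of male urine that attracts females. Its own entry held 21.2, 239.8 and 488.2 FPKM in PBS tumors, 1730, 253.5 and 446.0 FPKM in nonresponsive tumors, and 977.4 and 831.4 FPKM in responsive tumors 2 and 3. Mup3 had 21.4, 112.0 and 161.3 FPKM in PBS, 515.7, 121.5 and 124.6 FPKM in nonresponsive, and 654.3 and 417.5 FPKM in responsive tumors 2 and 3. The merged entry of responsive tumor 1 held 4323 FPKM for both genes together, the highest value of any Mup entry. Where the genes had separate entries, Mup20 stood at 0.991 to 3.58 times the level of Mup3, with the lowest ratio in PBS tumor 1. The joined locus held 42.5, 351.8 and 649.5 FPKM in PBS, 2245, 375.1 and 570.7 FPKM in nonresponsive and 4323, 1632 and 1249 FPKM in responsive tumors. At the joined locus responsive tumors did not overlap PBS tumors, and nonresponsive tumor 1 lay within the responsive range.

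Mup21 had the lowest mean level of the 8 loci, 16.7 FPKM. It held 0.373, 4.80 and 4.02 FPKM in PBS, 15.6, 4.01 and 3.51 FPKM in nonresponsive, and 82.7, 25.7 and 9.20 FPKM in responsive tumors. The deposited 95% interval in PBS tumor 1, from 0 to 0.804 FPKM, included 0. Responsive tumor 1 was the highest for this gene, the 3 responsive tumors lay above every PBS tumor, and the ratio of the nonresponsive to the PBS median was 0.998.

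Every Mup locus was higher in responsive than in PBS tumors at an unadjusted p under 0.05, in the comparison of treated, responding tumors with untreated ones. The log2 fold change on the log2(FPKM + 1) scale, which understates the change of low genes, ran from 2.98 (SE 1.06) for Mup10 to 3.87 (SE 1.07) for Mup7, with a median of 3.28 against -0.11 over all 12713 loci tested. All 8 loci passed an unadjusted p of 0.05 in limma, with p from 0.00761 for Mup1 to 0.0309 for Mup10, where 9.12% of all loci were called higher. All 8 also had responsive values wholly above PBS values, as had 11.8% of all loci tested. With Benjamini-Hochberg adjustment over all loci, limma gave adjusted p of 0.246 to 0.249 and 0 of 8 loci passed 0.05, beside 0.102% of all loci called higher. The exact permutation test, two-sided over 3 against 3 tumors, gave p = 0.1 for each locus, the smallest value it can give. Leaving out responsive tumor 1 or responsive tumor 2 reduced the 8 loci past the unadjusted threshold to 4 and 5, beside 4.54% and 9.92% of all loci called higher.

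Between responsive and nonresponsive tumors, the comparison of antibody-treated tumors by outcome, the difference at no Mup locus was large enough, against the spread between tumors, to pass the test. The log2 fold change ran from 1.18 (SE 0.58) for Mup10 to 1.98 (SE 0.87) for Mup21, with a median of 1.43 against -0.07 over all 12714 loci tested. In limma 0 of 8 loci passed an unadjusted p of 0.05, with p from 0.0609 for Mup21 to 0.236 for Mup7, where 4.37% of all loci were called higher. The groups overlapped at all 8 loci, and at each of them nonresponsive tumor 1 alone of its group reached the responsive range, whereas 5.69% of all loci had responsive values wholly above nonresponsive ones. The adjusted p from limma were 0.840 to 0.979, and 0.0551% of all loci were called higher after adjustment. The exact permutation test, two-sided, gave p = 0.2 to p = 0.4. Without nonresponsive tumor 1, 8 of 8 loci passed the unadjusted p of 0.05, and without both tumors of low Afp 8 of 8 passed as well, with adjusted p from limma of 0.170 to 0.382 and 0.417 to 0.601. In those 2 fits 7.52% and 5.15% of all loci were called higher at the unadjusted threshold.

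Nonresponsive and PBS tumors, the comparison of treatment without response, gave no called Mup locus either. The log2 fold change ran from 1.08 (SE 0.74) for Mup21 to 2.40 (SE 1.33) for Mup7, with a median of 1.88 against -0.06 over all 12661 loci tested. In limma 0 of 8 loci passed an unadjusted p of 0.05, with p from 0.105 to 0.197, beside 1.57% of all loci called higher. No locus had groups apart, as 3.23% of all loci had, and adjusted p from limma were 0.699 beside 0.00790% of all loci called higher after adjustment. The exact permutation test, two-sided, gave p = 0.3 to p = 0.6. The 3 comparisons share tumors, so they are not independent of one another.

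**Figure D2:**
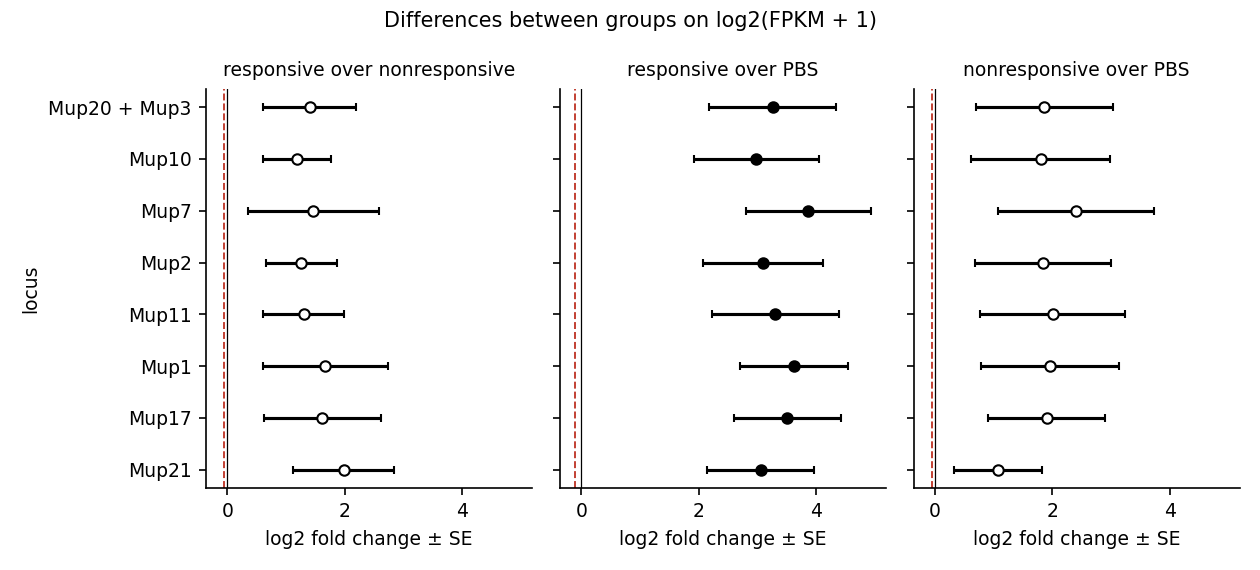
Log2 fold change of the 8 Mup loci in the 3 comparisons, with bars of 1 SE from limma. Filled points have an unadjusted p under 0.05, the dashed line is the median of all loci tested; every point lies to the right of 0, and the responsive over PBS points lie furthest, from 2.98 to 3.87.

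The estimated proportions of the members were not fixed. For the near-identical genes, including Mup10, shares and ratios rest on how shared reads were divided. They are therefore uncertain as proportions of single genes. The joined Mup20 and Mup3 locus made up 44.6% to 63.5% of the summed FPKM and Mup10 13.3% to 32.4%. The 63.5% and the 13.3% were both in responsive tumor 1, where 1 merged entry held Mup20 and Mup3. In the other tumors the ranges were 44.6% to 59.1% and 20.1% to 32.4%. Mup2 made up 4.98% to 9.03%, Mup11 4.84% to 8.04%, Mup7 3.48% to 11.6%, and Mup1, Mup17 and Mup21 at most 3.41% each. Relative to Mup10, Mup2 stayed within 0.279 to 0.375 in all 9 tumors. Mup7 ranged more widely, at 0.577 of Mup10 in nonresponsive tumor 1, 0.619 in responsive tumor 1 and 0.425 in responsive tumor 2, against 0.139 to 0.241 in the other 6 tumors. Mup1 and Mup17 were also highest relative to Mup10 in those 3 tumors, with Mup1 at 0.153 to 0.205 there and 0.0393 to 0.0818 elsewhere. The ratio of Mup7 to Mup10 did not separate the groups, since responsive tumor 3 had the lowest ratio of all 9 tumors.

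**Figure D3:**
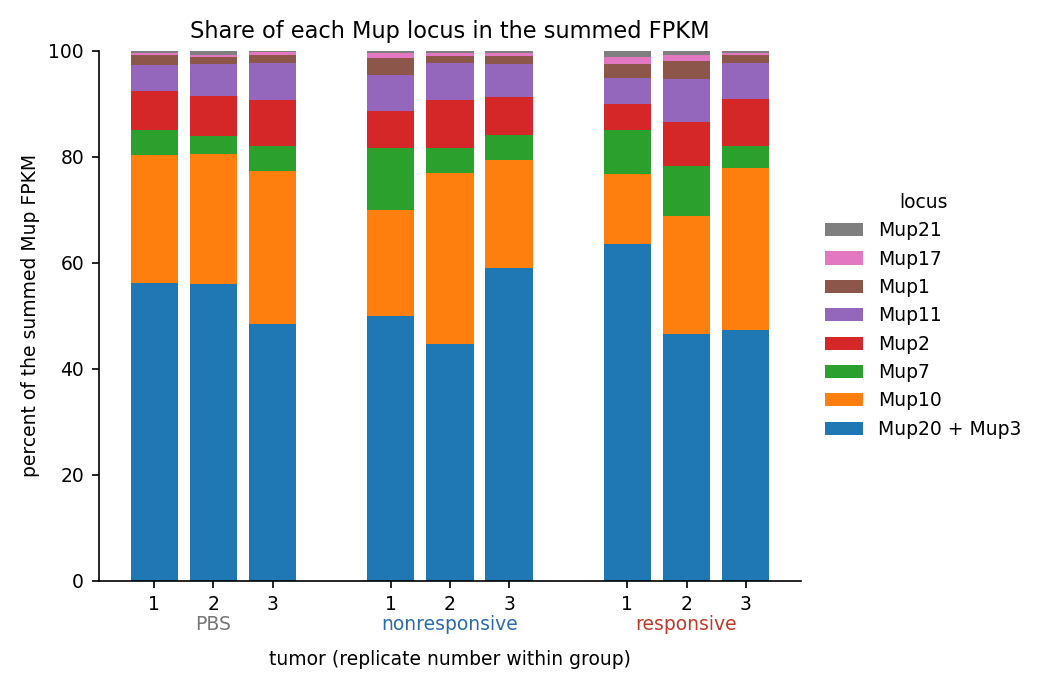
Share of each of the 8 Mup loci in the summed Mup FPKM of each tumor, in percent, stacked to 100. The joined Mup20 and Mup3 locus takes 44.6% to 63.5%, the highest share being that of the merged entry of responsive tumor 1. Mup7 is widest in nonresponsive tumor 1 at 11.6%. Shares of single near-identical genes rest on how shared reads were divided.

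**Figure D4:**
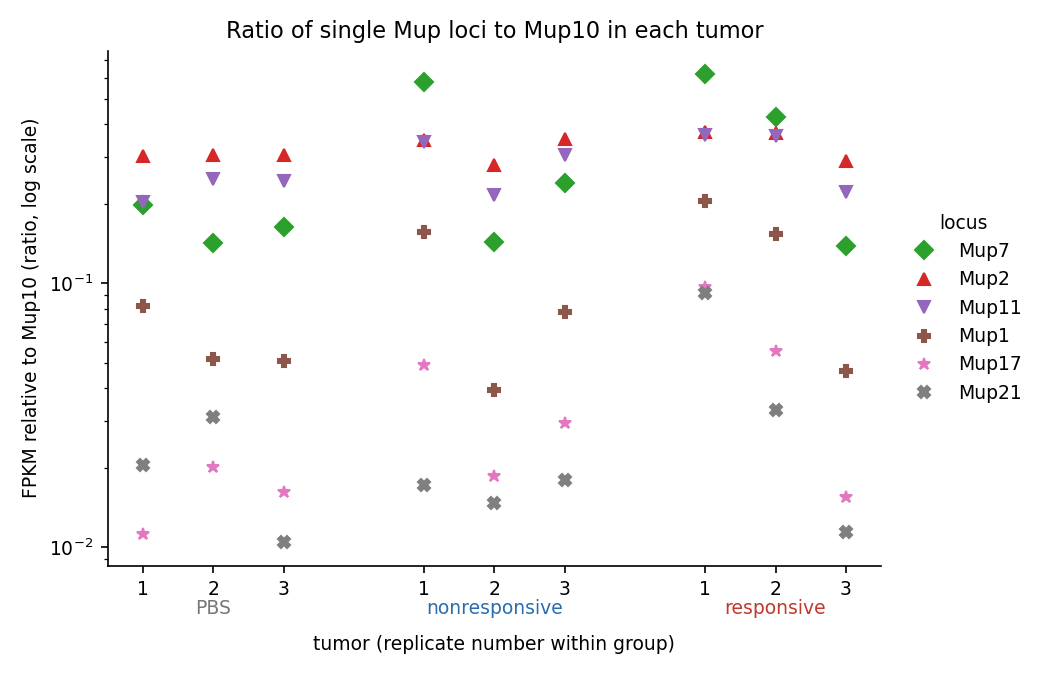
FPKM of 6 Mup loci relative to Mup10 (ratio, log scale) in each tumor; each point is 1 tumor. Mup2 stays between 0.279 and 0.375, whereas Mup7 runs from 0.139 in responsive tumor 3 to 0.619 in responsive tumor 1. Mup10 and all loci shown but Mup21 are near-identical genes, whose values rest on how shared reads were divided. The deposited intervals of Mup17 and Mup21 in PBS tumor 1 include 0.

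Of the 40 other Mup-named entries, 27 were pseudogenes and 13 were genes. Mup22 was the highest of these, at 32.0 to 640.4 FPKM in PBS, 315.0 to 1469 FPKM in nonresponsive and 1209 to 1465 FPKM in responsive tumors. It stood at 1.55 to 1.75 times Mup10 in every tumor, although Mup10 itself spanned 49.6-fold. Mup14 and Mup9 reached 599.8 and 507.1 FPKM. Mup12 and Mup15 ranged relative to Mup10 as Mup1 did, from 0.0367 to 0.148 and from 0.0496 to 0.256. Mup4 and Mup5, known from glands of the head rather than liver, were listed at 0 in all tumors, and Mup6 reached 0.0735 FPKM. For the rest of the 13 genes, 68.5% (Mup13) to 100% (Mup22 among others) of 100-base coding windows also occurred in another Mup gene. Their values and ratios therefore rest, like those of the near-identical set, on how shared reads were divided. Of 27 pseudogene entries 21 were listed at 0 in all tumors and 3 reached 1 FPKM, with Mup-ps19 highest at 531.4 FPKM. Sequence shared between pseudogenes and other Mup genes was not computed, so how far reads of other genes enter these values is not known. All 11 tested entries had an unadjusted p under 0.05 in limma for responsive over PBS, beside 9.12% of all loci called higher, with log2 fold changes of 2.92 to 3.76. In responsive over nonresponsive and nonresponsive over PBS 0 of 11 had one, beside 4.37% and 1.57% of all loci. Since most share coding windows with other Mup genes, the 11 are not measured apart from the 8 loci above. Including every Mup-named entry, responsive tumors summed to 5848 to 11894 FPKM, nonresponsive tumors to 1891 to 8899 FPKM and PBS tumors to 152.3 to 2972 FPKM, and the 9 genes made up 44.2% to 57.2% of it.

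The Mup sum was compared with other RNA of mature hepatocytes, since the genes are used as markers of these cells. Relative to albumin (Alb), the main plasma protein of hepatocytes, the summed Mup FPKM was 43.8%, 75.4% and 106.3% in PBS tumors 1 to 3. In nonresponsive tumors 1 to 3 the ratio was 168.1%, 56.4% and 109.2%. Responsive tumors 1 to 3 had 135.1%, 135.9% and 60.1%. The 3 groups overlapped throughout. The log2 difference of responsive over nonresponsive tumors, 1.37 for the sum itself, was 0.031 after division by albumin and 0.051 after subtraction of the mean log2(FPKM + 1) of 34 mature hepatocyte loci. For responsive over PBS the 3.31 became 0.55 and 0.77 in the same way, and for nonresponsive over PBS the 1.94 became 0.52 and 0.72. Without nonresponsive tumor 1 the scaled differences of responsive over nonresponsive tumors were 0.40 and 0.42, without nonresponsive tumor 2 they were -0.39 and -0.34, and without responsive tumor 1 or 2 they were also below 0, so that their direction turned on single tumors. Those of responsive over PBS lay between 0.21 and 0.94 for albumin and between 0.41 and 1.16 for the list with 1 tumor left out, lowest without PBS tumor 1. Those of nonresponsive over PBS lay between 0.15 and 0.94 and between 0.35 and 1.11, lowest without nonresponsive tumor 1. These ratios were not tested. Without the joined Mup20 and Mup3 locus, which held the merged entry of responsive tumor 1, the differences of the sum were 1.32, 3.31 and 2.00.

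**Figure D5:**
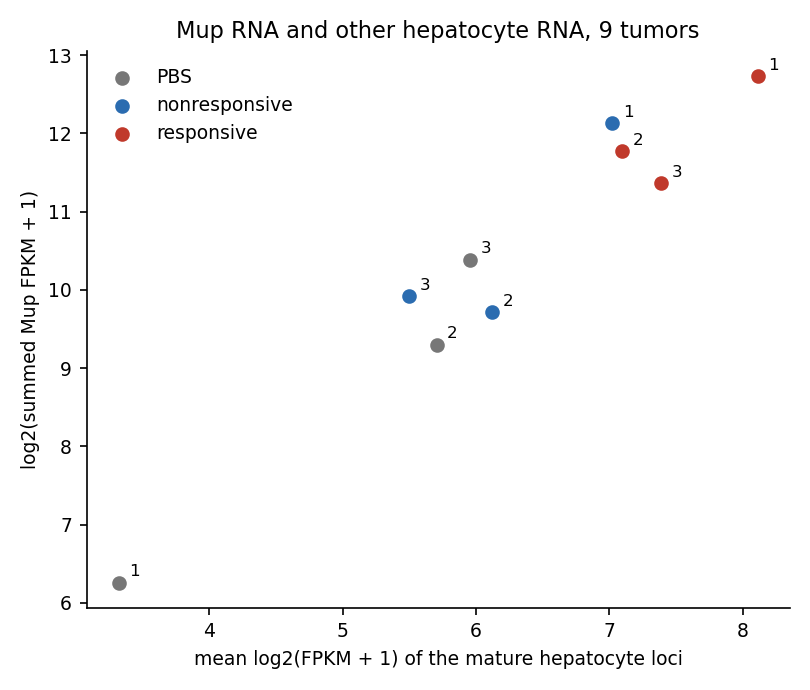
Log2(summed Mup FPKM + 1) against the mean log2(FPKM + 1) of the 34 mature hepatocyte loci, with each point 1 tumor, labelled by its replicate number and coloured by group. The points run from PBS tumor 1 at 3.32 and 6.26 to responsive tumor 1 at 8.11 and 12.73, and nonresponsive tumor 1 lies among the responsive tumors.

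The hepatocyte list itself had 33 loci tested. Of these, 30 of 33 were higher in responsive than in PBS tumors at an unadjusted p under 0.05 in limma and 0 lower, with a median log2 fold change of 2.85. With responsive over nonresponsive, 19 of 33 were higher and 0 lower, with a median of 1.44. That count was 29 without nonresponsive tumor 1 and 26 without both tumors of low Afp, beside 7.52% and 5.15% of all loci. It was 8 to 12 without nonresponsive tumor 2 or 3 or responsive tumor 1 or 3, beside 1.56% to 2.22% of all loci. The count of 30 was 14 without responsive tumor 1 and 19 without responsive tumor 3, beside 4.54% and 5.24% of all loci. With nonresponsive over PBS, 2 of 33 were higher, with a median of 1.40, and became 0 without nonresponsive tumor 1 or PBS tumor 1 and 1 without nonresponsive tumor 2 or PBS tumor 2. None passed an adjusted p of 0.05 in limma. Its highest loci were the Serpina1 locus with Serpina1c, Alb, and the Apoa2 locus, with means of 2578, 2148 and 1939 FPKM over the 9 tumors. The largest differences without overlap between responsive and nonresponsive tumors were in G6pc, for the last step of glucose release, with a log2 fold change of 2.30 (SE 0.58), and in the cytochrome P450 genes Cyp2c29 with 2.22 (SE 0.57), Cyp8b1 with 1.98 (SE 0.48) and Cyp2f2 with 1.98 (SE 0.46).

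Genes known as male-biased in liver, a pattern they share with the Mup genes, were counted in the same way. All 13 of 13 tested loci were higher in responsive than in PBS tumors at an unadjusted p under 0.05 in limma, with responsive over nonresponsive 5 of 13, and with nonresponsive over PBS 0 of 12, or 1 without PBS tumor 3 or nonresponsive tumor 3. The 5 became 11 without nonresponsive tumor 1 and 10 of 12 without both tumors of low Afp, beside 7.52% and 5.15% of all loci. They became 0 to 2 without nonresponsive tumor 2 or 3 or responsive tumor 1 or 3, beside 1.56% to 2.22% of all loci. The 13 became 8 without responsive tumor 1, beside 4.54% of all loci. The locus of Serpina1e is also the Serpina1c locus of the hepatocyte list. Slco1a1, an organic anion carrier, differed by 1.91 (SE 0.57) between responsive and nonresponsive tumors, without overlap. Of 17 female-biased loci, 3 were listed at 0 in all tumors and 5 to 7 could be tested. Of 6 tested, 2 were higher and 1 lower with responsive over PBS. The locus of Cyp3a16 and Cyp3a41a in the female-biased list is also the Cyp3a11 locus of the hepatocyte list, with a mean of 114.4 FPKM. With responsive over nonresponsive 1 of 7 was higher, the acyl-CoA thioesterase locus with Acot3 at 1.30 (SE 0.40), and with nonresponsive over PBS 1 of 5 was higher. Without responsive tumor 1 or 3 no female-biased locus passed in either comparison with responsive tumors. With responsive over nonresponsive 2 were higher without nonresponsive tumor 1 or 2 and 3 without responsive tumor 2. The 1 lower with responsive over PBS did not pass without PBS tumor 1 or 3, and the 1 higher with nonresponsive over PBS did not without PBS tumor 1 or nonresponsive tumor 1 or 2. The Y-linked locus Ddx3y with Uty lay at 5.20 to 20.2 FPKM in all 9 tumors.

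Of the growth hormone pathway that sustains Mup expression, 9 loci were tested in each comparison. For responsive over PBS, 3 of 9 were higher at an unadjusted p under 0.05 in limma and 1 lower, with a median log2 fold change of 0.22. The growth hormone receptor gene Ghr was higher by 2.47, and its targets Igf1 and Igfals, a growth factor and its carrier subunit, by 2.42 and 2.26, while the kinase gene Jak2 was lower, at -0.69. No locus was lower without PBS tumor 2 or 3, and 2 were without responsive tumor 3. The transcription factor gene Stat5b did not pass the test, with 0.22, and the feedback inhibitor genes Socs2 and Cish had 0.07 and 0.09. With responsive over nonresponsive 0 of 9 passed, or 2 higher and 1 lower without nonresponsive tumor 1, 2 higher without both tumors of low Afp, and 1 higher without responsive tumor 2 or 3. With nonresponsive over PBS 1 of 9 passed, Igf1 at 1.32, and 0 without nonresponsive tumor 1 or 2 or PBS tumor 1 or 3. Of 18 hepatocyte transcription factor loci, 11 were higher and 1 lower with responsive over PBS, 3 higher with responsive over nonresponsive, among them Hnf4a at 1.05 (SE 0.32) and Foxa1 at 0.94 (SE 0.27), and 0 with nonresponsive over PBS. The 11 became 4 without responsive tumor 1 and 6 without responsive tumor 3, and the 1 lower became 0 without any 1 of the PBS tumors or responsive tumor 1 or 3 and 3 without responsive tumor 2. The 3 became 10 without nonresponsive tumor 1, 7 without both tumors of low Afp, 6 without responsive tumor 2 and 1 without nonresponsive tumor 2 or 3 or responsive tumor 1. With nonresponsive over PBS 3 were lower without nonresponsive tumor 3. The locus of Nr1i3 in the transcription factor list is also the Apoa2 locus of the hepatocyte list, with a mean of 1939 FPKM. Its values cannot be ascribed to Nr1i3 alone.

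Other lipocalins, the protein family of the Mup genes, were less uniform. In responsive over PBS tumors 4 of 7 tested loci were higher at an unadjusted p under 0.05 in limma, and with responsive over nonresponsive 2 of 6, among them the retinol carrier gene Rbp4 at 1.41 (SE 0.42), while 1 of 7, Ptgds, was lower with nonresponsive over PBS, though not with any 1 of the 6 tumors left out. The 4 became 1 without responsive tumor 1 and 2 without responsive tumor 2 or 3. The 2 became 4 without nonresponsive tumor 1 or both tumors of low Afp, 0 without nonresponsive tumor 2, and 1 without nonresponsive tumor 3 or responsive tumor 1 or 3. The locus of the acute-phase genes Orm1, Orm2 and Orm3 and that of Lcn2, with means of 1365 and 997.8 FPKM, passed in neither. Genes next to the Mup cluster on chromosome 4 had median log2 fold changes of 0.02, -0.04 and -0.20 with responsive over PBS, responsive over nonresponsive and nonresponsive over PBS. Of 10 to 11 neighboring loci tested, 1 passed in any comparison, Bspry at 0.79 (SE 0.31) with responsive over nonresponsive, and it did not pass without nonresponsive tumor 2 or 3 or any 1 of the responsive tumors. With 1 tumor left out, 1 neighboring locus was higher with responsive over PBS without PBS tumor 2 or responsive tumor 1, 2 were lower without responsive tumor 2, and 1 was lower with nonresponsive over PBS without nonresponsive tumor 3.

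Markers of other cell types were measured beside these values. The shares of all loci called higher, given with the hepatocyte list, stand beside these counts too. With responsive over nonresponsive, 0 of 9 macrophage, 0 of 6 Kupffer cell, 0 of 6 sinusoidal endothelial, 0 of 9 fibroblast and stellate cell, 1 of 6 cholangiocyte and 3 of 9 T cell loci were higher at an unadjusted p under 0.05 in limma. The T cell genes were Cd2 at 0.69, Cd3d at 0.64 and Lck at 0.60, and the count was 5 without responsive tumor 1 and 5 without both tumors of low Afp. Sinusoidal endothelial loci reached 3 higher without nonresponsive tumor 1 and without both tumors of low Afp, Kupffer cell loci 2 without nonresponsive tumor 1, and cholangiocyte loci 2 without nonresponsive tumor 3. Of the fibroblast and stellate cell loci 3 were lower without nonresponsive tumor 3, and 1 was higher without responsive tumor 2. Of 10 fetal liver and tumor loci 1 was lower, the imprinted H19 at -1.95 (SE 0.54), and 2 were lower without responsive tumor 1 or 2 or both tumors of low Afp.

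For responsive over PBS, 1 of 9 macrophage, 0 of 5 Kupffer cell, 3 of 6 sinusoidal endothelial, 1 of 9 fibroblast and stellate cell, 0 of 6 cholangiocyte, 0 of 9 T cell and 0 of 9 fetal liver and tumor loci were higher. T cell loci numbered 6 higher without PBS tumor 2. The sinusoidal count was 0 without responsive tumor 1 or 3, the macrophage count 0 without PBS tumor 1 or 3 or any 1 of the responsive tumors, and the Kupffer cell count 1 without PBS tumor 1 and 3 without PBS tumor 3. Without responsive tumor 2, 3 fetal liver and tumor, 3 cholangiocyte and 1 fibroblast and stellate cell loci were lower, where 2760 of all 12471 loci tested were. Without PBS tumor 2, 1 cholangiocyte locus was higher. With nonresponsive over PBS, 1 of 9 macrophage, 1 of 9 fibroblast and stellate cell and 1 of 9 fetal liver and tumor loci were higher, while 1 of 9 fetal liver and tumor and 1 of 6 cholangiocyte loci were lower. None of these 5 counts held with every tumor left out in turn. Macrophage loci numbered 6 higher without nonresponsive tumor 3, 3 without PBS tumor 2 and 0 without any 1 of the other 4 tumors. The shares of all loci called higher there were 5.95%, 1.80% and 0.493% to 1.28%. T cell and Kupffer cell loci, 0 higher with all tumors, each reached 3, without PBS tumor 2 and without PBS tumor 3.

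Of the pancreatic acinar list, mostly near 0 outside nonresponsive tumor 2, 2 loci were tested, and 1, the amylase locus with Amy2a5, was higher with responsive over PBS. Of the muscle list 2 to 3 loci were tested. Mylpf was lower with responsive over nonresponsive, though not without nonresponsive tumor 1 or 3, responsive tumor 1 or 2, or both tumors of low Afp. The locus with Tnnt3 was higher with nonresponsive over PBS, though not without PBS tumor 1 or 3 or nonresponsive tumor 3. The part of these cell types in the Mup results was not tested.

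The loci most like the Mup sum over the 9 tumors were ranked among 13183 loci by Pearson correlation of log2(FPKM + 1), as a description in which all loci share the same libraries. Outside the 9 genes, 6 of the 10 closest were other Mup entries, Mup19, Mup18, Mup8, Mup-ps19, Mup16 and Mup13, with r of 0.990 to 0.996. The other 4 were the complement gene Hc (r = 0.992, rho = 0.983), the steroid dehydrogenase gene Hsd17b2 (r = 0.991, rho = 0.933), the locus of the male-biased cytochrome P450 genes Cyp4a12a and Cyp4a12b, joined with Cyp4a30 genes, (r = 0.990, rho = 1) and the apolipoprotein gene Apoc1 (r = 0.990, rho = 0.933). Without PBS tumor 1 and responsive tumor 1, the 2 tumors farthest from the median, these 4 had r of 0.972, 0.974, 0.985 and 0.961. Mup19, Mup18, Mup8, Mup16 and Mup13 share most of their coding windows with another Mup gene. Their FPKM are thus not measured apart from the Mup sum, and their r is not independent of it. For Mup-ps19 shared sequence was not computed, so whether its r is independent of the sum is not known. Across 33 hepatocyte loci the median r was 0.948, and 0.837 without those 2 tumors, beside a median of -0.18 over all ranked loci.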

How the data were processed

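Libraries of total RNA were made with a TruSeq kit. Per the labels, the authors' processing named TopHat2 2.1.1, Bowtie2 2.2.4 and build mm8. The bounds of some deposited entries differed from those of GRCm38, so no coordinate of the files is given. The authors deposited, for every tumor, a Cufflinks table of FPKM with its 95% interval, from transcripts assembled in that tumor with an Ensembl annotation as guide. A deposited table of Cuffdiff group values, fold changes, p-values and q-values was not used. No pair of tumors were duplicates (at most 0.00634% of values identical).

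Entries were joined by symbol, and genes that shared an entry in any tumor were summed into 1 locus, giving 48235 loci, 2595 of them with several genes. Entries without a gene name and 7 loci with a failed estimate were left out. The limma package (3.58.1, R 4.3.3, eBayes with trend) was run on log2(FPKM + 1) of the 6 tumors of each comparison, using loci that reached an FPKM of 1 in 3 or more of them, with Benjamini-Hochberg adjustment over all loci. Exact permutation tests were two-sided. Depth is unknown, so no counting interval is given. The median half-width of the deposited interval of the members was 5.12% to 32.2% of FPKM per tumor. In 10 simulated data sets of the responsive over nonresponsive comparison on 12714 loci, 92.6% of 200 loci changed by 2 on the log2 scale had p under 0.05 and 53.6% had adjusted p under 0.05, with 5.24% of unchanged loci under 0.05. The changed loci were drawn at random and noise was independent between loci. These shares are therefore not the power for the Mup loci, whose SE in that comparison was 0.58 to 1.11. Identity was computed on GENCODE M21 coding sequences. Python 3.11.15, pandas 2.3.3, numpy 2.4.6, scipy 1.17.1 and matplotlib 3.10.9 were used.

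The members and gene lists were chosen with earlier results of these data known. Genes named are the members, the other Mup-named entries, the 3 highest loci of a list and up to 4 with the largest difference without overlap between responsive and nonresponsive tumors (for several lists only some are described), and the 10 loci most correlated with the Mup sum. Afp, Krt19, Xist, Ctrb1, Tnnc2 and others outside this rule were chosen after their values were seen. Alternatives were a pseudocount of 0.1, no filter, a filter at 5 FPKM, 2 scalings, a single fit of all 9 tumors, a block for the replicate number, each tumor left out, other sets of summed entries, and scaling to albumin or to the hepatocyte list. The tumors of a group are separate mice.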

Additional observations from a re-analysis of the deposited data

How the results depend on the processing

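No Mup locus changed direction in the alternatives run. The number of loci past an unadjusted p of 0.05 in responsive over nonresponsive tumors, 0 of 8, was 6 with the replicate number as a block, 8 without both tumors of low Afp, which was chosen after seeing the data, and 0 to 8 with 1 tumor left out. The 8 were reached without nonresponsive tumor 1, and 1 locus passed without responsive tumor 3. Of all loci tested, 5.85% were called higher with the block and 5.15% without both tumors of low Afp. That share was 7.52% without nonresponsive tumor 1 and 1.75% without responsive tumor 3. In responsive over PBS, 8 of 8 became 7 with the block and 4 to 8 with 1 tumor left out, lowest without responsive tumor 1. There 5.42% of all loci were called higher with the block and 4.54% without responsive tumor 1. In nonresponsive over PBS the number of Mup loci stayed at 0 throughout. For the summed Mup FPKM, the log2 difference of responsive over nonresponsive tumors moved from 1.37 to 0.031 when scaled to albumin and to 0.051 when scaled to the hepatocyte list, and that of responsive over PBS from 3.31 to 0.55 and 0.77. With 1 tumor left out they lay between 0.93 and 2.14, between 2.11 and 4.18 and, for nonresponsive over PBS, between 0.75 and 2.81. The replicate block left the 3 differences at 1.37, 3.31 and 1.94. Deviations from group means correlated at -0.50 to 0.64 for same-numbered tumors, over 0.1 in 2 of 9 pairs, and at -0.63 to 0.60 for others. The 0.64 was that of nonresponsive tumor 1 with responsive tumor 1. With 3 tumors a group, these values cannot tell whether replicate numbers pair the tumors. Scaling to the summed FPKM of named entries moved the median of all loci in responsive over nonresponsive from -0.07 to -0.24 and the loci past p of 0.05 from 555 higher and 200 lower to 292 and 573, and in responsive over PBS from 1159 and 1275 to 897 and 2273. Loci past the adjusted threshold were 7 higher and 1 lower in responsive over nonresponsive tumors, and 0 of either with the block or without a filter. Among the gene lists, recomputed after seeing the data, loci higher at p of 0.05 in responsive over nonresponsive tumors moved with the block from 19 to 29 of the hepatocyte list, from 5 to 10 of the male-biased list, from 3 to 9 of the transcription factors, from 0 to 3 of the growth hormone list and from 0 to 2 of the sinusoidal list. In a single fit of all 9 tumors they moved to 8, 2, 5, 0 and 0, and T cell loci from 3 to 0. When rescaled to named entries the hepatocyte count was 14, and the male-biased count was 2 there, with upper-quartile scaling and without a filter. In responsive over PBS the block moved hepatocyte loci from 30 to 23, transcription factors from 11 to 7, lipocalins from 4 to 2 and sinusoidal loci from 3 to 0, and the single fit moved T cell loci from 0 to 4 and Kupffer cell loci from 0 to 4. With 1 tumor left out of a group of 3, the remaining spread was pooled in limma. With 3 tumors a group, the exact permutation test cannot go below 0.1.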
